A study of Mus musculus with 24 samples.

Results

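Genes of the conjugation phase of liver detoxification were examined in livers of male C57BL/6J mice, on 24 microarrays of 6 mice in each of 4 groups. The genes were chosen by name alone, as the UDP-glucuronosyltransferases (UGT families 1 to 3), the glutathione S-transferases (GST classes alpha, kappa, mu, pi and theta) and the sulfotransferases (SULT) with a probe in the deposited matrix of processed values, and the brightest probe stood for each gene. Of 50 genes on the array with such a name, 40 met this rule, among 21652 gene names in that matrix. They comprised 16 GST, 14 UGT and 10 SULT genes. The probes of the other 10 genes (Gstt4, Sult2a1 to Sult2a6, Sult2b1, Sult3a1 and Sult6b1) were well above background on at most 1 of the 6 arrays of any group, and these genes were not tested. All 40 members were well above background on all 6 arrays of every group and passed the filter on dim probes.

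LWT mice were littermates with floxed Pik3ca alleles and no Cre recombinase. LKO mice also carried a Cre transgene under the albumin promoter, which deletes part of Pik3ca from hepatocytes, so the floxed alleles were shared by all groups. Pik3ca encodes p110α, a catalytic subunit of the phosphoinositide 3-kinase that insulin activates. At 12 weeks of age, mice were fed (LWT_Fed, LKO_Fed) or went without food for 24 h (LWT_Fasted, LKO_Fasted), and livers were taken at Zeitgeber time 16. The question was how the response of these genes to feeding and fasting depends on hepatocyte p110α. On each array 54.7% to 63.0% of spots were well above background, and each of 3 slides held 2 arrays of every group. The only Pik3ca probe was not lower in LKO when fed, reading 12.30 to 13.02 on LKO_Fed arrays against 11.71 to 12.25 on LWT_Fed arrays (log2). Fasted arrays overlapped, at 12.03 to 12.5 in LKO_Fasted and 12.05 to 12.42 in LWT_Fasted. The place of this probe relative to the deleted part was not examined, so LKO and LWT below mean arrays so labelled. LKO_Fasted replicates 1 and 2 had 61.8% and 63.0% of spots well above background, against 57.3% to 58.6% on the other 4 LKO_Fasted arrays, and counts are also given without them. The fit gave the lowest weights to LWT_Fed replicate 3 (0.32) and LKO_Fasted replicate 4 (0.355). All 6 hepatocyte markers (Alb, Ttr, Apoa1, Fgb, Serpina1a and Tat) were tested, their summed signal lay between 1760000 and 1940000 on every array, and none was called in any comparison at the minimum fold. At the adjusted p alone Ttr was lower with fasting in LWT (-0.17) and LKO (-0.37) and lower in LKO than in LWT both fed (-0.21) and fasted (-0.41), and Apoa1 was higher in LKO_Fed (0.28). Tat differed by -0.56 between fasted genotypes (limma adjusted p = 0.086).

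Conjugation makes lipophilic compounds soluble enough to leave the cell. UGT enzymes attach glucuronic acid from UDP-glucuronic acid to bilirubin, steroids and drugs, GST enzymes join glutathione to electrophiles such as the products of lipid peroxidation, and SULT enzymes transfer sulfate from the donor PAPS to phenols, catecholamines, steroids and bile acids. The liver is the main site of all 3 reactions, and many of these genes lie in tandem clusters of close relatives.

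Values below are normalized log2 signals, with the lowest, the median and the highest of 6 arrays given in that order, and a difference of 1 unit is a factor of 2. Levels of different probes are not compared. Fold changes come from one limma fit to all 24 arrays with slide as a term, SE is their standard error, and adjusted p-values (Benjamini-Hochberg) cover all 32197 probes kept. Calls required both a change of more than 1.5-fold and an adjusted p no higher than 0.05. In whole liver, fewer hepatocytes and less RNA per hepatocyte cannot be told apart.

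**Figure D1:**
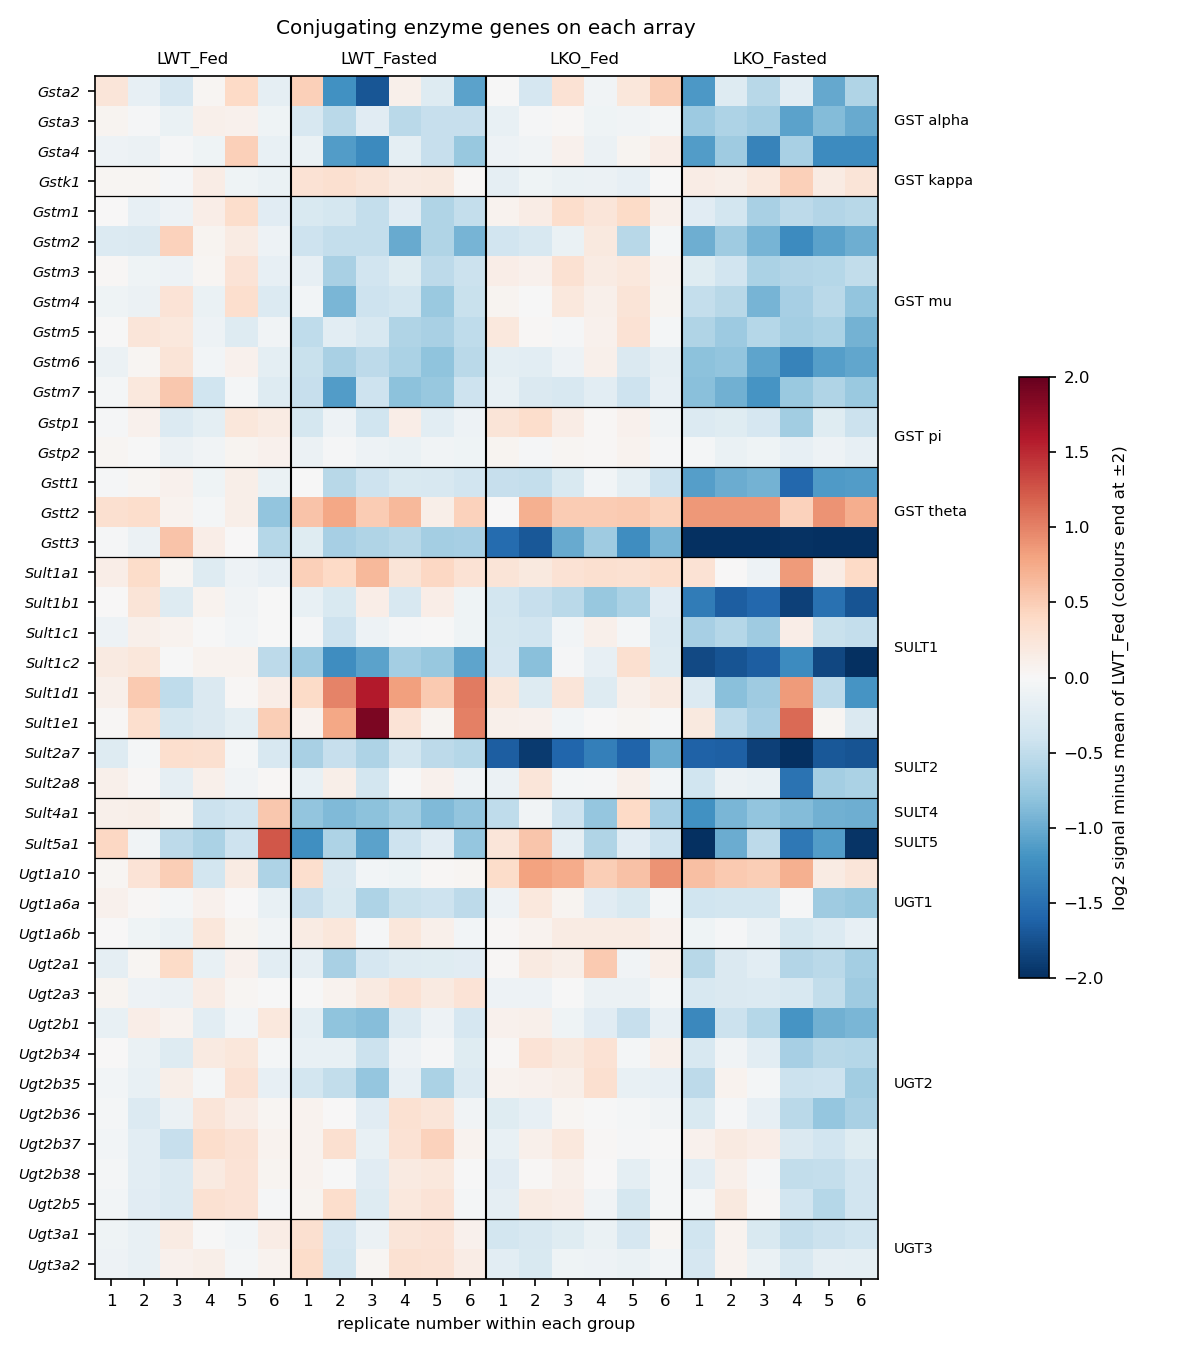
Normalized log2 signal of the 40 members (rows, by family) on each of the 24 arrays (columns, by group and replicate number), as the difference from the mean of the 6 LWT_Fed arrays. Blue marks signals below that mean and red signals above it. The mu-class rows are blue in both fasted groups, Gstt3 and Sult2a7 are blue in both LKO groups, and Sult1d1 is red in LWT_Fasted but not on 5 of the 6 LKO_Fasted arrays.

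On the brightest probe of each gene, fasting lowered 19 of the 40 members in LKO and raised none. In LWT it lowered 4 and raised 2. Over all 21495 genes tested, fasting called 6.88% lower and 5.90% higher in LKO, and 5.22% lower and 4.81% higher in LWT. The median log2 fold change with fasting was -0.49 over the members in LKO and -0.23 in LWT, beside -0.02 and -0.01 over all genes. The minimum fold bears on these counts. At an adjusted p of at most 0.05 alone, fasting lowered 29 members in LKO and 18 in LWT and raised 1 and 5, beside 21.8% and 21.7% of all genes lowered and 19.7% and 19.9% raised. Those lowered in LWT below 1.5-fold included 6 of the 7 mu-class genes. With the probe of lowest adjusted p for each gene, fasting lowered 19 members and raised 1 (Gstt2) in LKO. In LWT it then lowered 4 and raised 3. The share of all genes for that choice of probe was not computed.

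By class, fasting in LKO lowered 12 of 16 GST genes, 5 of 10 SULT genes and 2 of 14 UGT genes. In LWT it lowered 2 GST genes (Gsta4 and Gstm2) and 2 SULT genes (Sult1c2 and Sult4a1), raised 2 SULT genes (Sult1d1 and Sult1e1) and called no UGT gene at either sign. With the background-subtracted processed signal Ugt1a6a was called lower in both genotypes, but not with normexp background correction. The LWT counts depended on single arrays. Without LWT_Fed replicate 6 or LWT_Fasted replicate 1, 7 members fell, 5 of them GST genes (Gsta2, Gsta4, Gstm2, Gstm6 and Gstt3), while without LWT_Fed replicate 5 or LWT_Fasted replicate 6, 3 members fell, of which 1 was a GST gene (Gstm2 and Gstm7, respectively). The fasting log2 fold changes of the UGT genes spanned -0.74 to -0.01 in LKO and -0.50 to 0.20 in LWT.

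**Figure D2:**
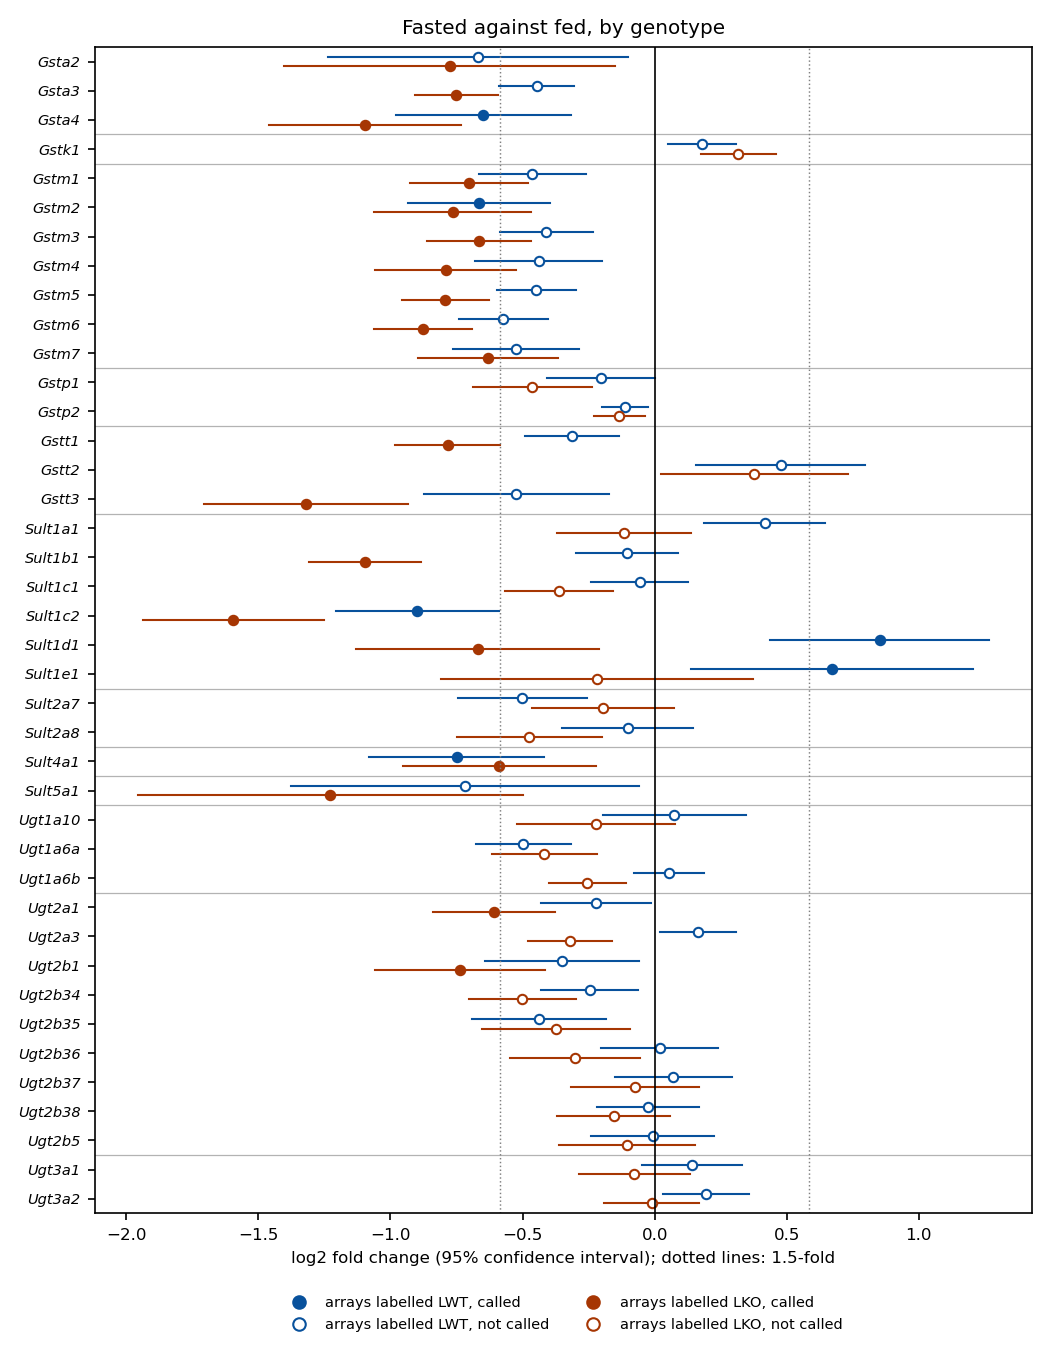
Log2 fold change of each member from fed to fasted livers, in arrays labelled LWT (blue) and LKO (brown), with 95% confidence intervals from limma. Filled points were called, open points were not, and dotted lines mark 1.5-fold. All 7 mu-class and all 3 alpha-class points for LKO are filled and lie at -0.63 or lower, while Sult1d1 lies at 0.85 in LWT and -0.67 in LKO.

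The mu class (Gstm1 to Gstm7), one of the cytosolic GST classes of the liver, fell together in LKO. All 7 genes fell with fasting in LKO, by 0.63 (Gstm7) to 0.88 (Gstm6) on the log2 scale. Gstm6 read 14.18, 14.28 and 14.56 in LKO_Fed and 13.13, 13.41 and 13.67 in LKO_Fasted. In LWT it read 14.27, 14.45 and 14.72 fed and 13.66, 13.88 and 14.02 fasted. Fed and fasted arrays did not overlap in either genotype. Its log2 fold change with fasting was -0.88 in LKO (SE 0.0895, limma adjusted p = 6.33e-08) and -0.57 in LWT (adjusted p = 6.78e-06), the latter just under 1.5-fold.

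Gstm5 read 11.20, 11.30 and 11.53 in LKO_Fed against 10.30, 10.59 and 10.68 in LKO_Fasted, and 10.98, 11.21 and 11.49 in LWT_Fed against 10.59, 10.73 and 11.04 in LWT_Fasted. The fed and fasted arrays were fully apart in LKO and overlapped slightly in LWT. Its log2 fold change was -0.79 in LKO (SE 0.0798, limma adjusted p = 5.26e-08) and -0.45 in LWT (adjusted p = 3.32e-05), the latter under 1.5-fold. Gstm2 was the mu-class gene called in both genotypes, with 13.12, 13.39 and 13.87 in LWT_Fed, 12.40, 12.87 and 13 in LWT_Fasted, 12.86, 13.18 and 13.61 in LKO_Fed and 12.15, 12.44 and 12.70 in LKO_Fasted. Fasted arrays lay below fed arrays in both genotypes. The log2 fold changes were -0.66 in LWT (SE 0.129, adjusted p = 0.000258) and -0.76 in LKO (SE 0.143, adjusted p = 0.000171). The LWT call was lost without LWT_Fasted replicate 4 (-0.58) or replicate 6 (-0.57).

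The other 4 mu-class genes followed the same course. Gstm1 read 15.86, 16.03 and 16.43 in LWT_Fed, 15.48, 15.67 and 15.86 in LWT_Fasted, 16.15, 16.28 and 16.47 in LKO_Fed and 15.44, 15.55 and 15.86 in LKO_Fasted. Gstm3 read 17.07, 17.20 and 17.51, then 16.58, 16.83 and 17.06, then 17.30, 17.39 and 17.54, and 16.60, 16.69 and 16.99 in the same order of groups. In LKO every fasted array of both genes lay below every fed array. Gstm4 read 12.96, 13.14 and 13.56 in LWT_Fed, 12.31, 12.80 and 13.17 in LWT_Fasted, 13.23, 13.31 and 13.49 in LKO_Fed and 12.30, 12.63 and 12.76 in LKO_Fasted. Gstm7 read 10.48, 10.84 and 11.42, then 9.76, 10.28 and 10.47, then 10.47, 10.63 and 10.74, and 9.70, 10.09 and 10.28 in that order. Again no fasted LKO array of either gene reached the lowest fed one.

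The log2 fold changes with fasting in LKO were -0.70 for Gstm1 (SE 0.108, limma adjusted p = 1.74e-05), -0.66 for Gstm3 (SE 0.0945, adjusted p = 6.59e-06), -0.79 for Gstm4 (SE 0.128, adjusted p = 3.31e-05) and -0.63 for Gstm7 (SE 0.127, adjusted p = 0.000379). In LWT they were -0.46, -0.41, -0.44 and -0.52 for these 4 genes, each with an adjusted p of at most 0.00401 and under 1.5-fold. No mu-class gene was called between genotypes in either feeding state, and none had an interaction (how far the change with fasting in LKO exceeded that in LWT, as a signed log2 difference) at an adjusted p of 0.05 or lower. The interactions of the 7 genes spanned -0.35 to -0.10.

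Second probes of Gstm1, Gstm5 and Gstm6 were also called lower with fasting in LKO, at -0.75, -0.79 and -0.89, whereas a dim second probe of Gstm7 was not (-0.20, adjusted p = 0.14). The Gstm7 call was also lost without LKO_Fasted replicate 2 (-0.58) or replicate 3 (-0.51). Of the 7 probes, 6 lie on chromosome 3 (mm9, 107701511 to 107846847), whereas the files place the Gstm1 probe on chromosome 5, at 117082490 to 117082549. The Gstm4 and Gstm7 probes span 353 and 1175 bases of the genome, as probes across an exon junction do. No mu-class probe shares a run of 20 bases or more with a probe of another gene on the array. Likeness to transcripts of the other genes was not examined, so signal from close relatives cannot be set aside.

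In the alpha class, whose enzymes act on lipid peroxidation products and steroids, all 3 genes fell with fasting in LKO. Gsta4, which conjugates 4-hydroxynonenal, read 10.71, 10.81 and 10.95 in LKO_Fed and 9.49, 9.63 and 10.17 in LKO_Fasted. In LWT it read 10.68, 10.72 and 11.30 fed and 9.55, 10.21 and 10.69 fasted. The LKO groups were fully apart and the LWT groups touched. The log2 fold changes were -1.10 in LKO (SE 0.176, limma adjusted p = 2.98e-05) and -0.65 in LWT (SE 0.159, adjusted p = 0.00226), and the LWT call was lost without LWT_Fed replicate 5 (-0.52), LWT_Fasted replicate 3 (-0.47) or LWT_Fasted replicate 6 (-0.49). Gsta3 read 17.91, 18.01 and 18.09 in LKO_Fed and 16.99, 17.26 and 17.44 in LKO_Fasted, and 17.93, 18.08 and 18.17 against 17.53, 17.60 and 17.83 in LWT. Its fed arrays lay above its fasted arrays in both genotypes, with log2 fold changes of -0.75 in LKO (SE 0.0756, limma adjusted p = 5.30e-08) and -0.45 in LWT (adjusted p = 1.82e-05, under 1.5-fold).

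A dimmer probe of Gsta3 gave larger changes, -2.39 in LKO and -1.46 in LWT, and was also lower in LKO than in LWT when fasted (-1.08, limma adjusted p = 0.00131). Another probe gave -0.83, -0.47 and -0.38, with an interaction of -0.36 (limma adjusted p = 0.0174, under 1.5-fold). Gsta2 varied most within groups, with 11.92, 12.36 and 12.74 in LKO_Fed, 11.10, 11.67 and 12.05 in LKO_Fasted, 11.92, 12.19 and 12.65 in LWT_Fed and 10.55, 11.59 and 12.73 in LWT_Fasted. The LWT_Fasted arrays spanned all LWT_Fed arrays. Its fold change of -0.78 in LKO (SE 0.302, adjusted p = 0.0438) was close to that of -0.67 in LWT (adjusted p = 0.0543), which was not called, and the LKO call was lost under 12 of 36 alternatives, 10 of them with arrays left out, namely LWT_Fed replicate 4 or 5, LKO_Fed replicate 1, 3, 5 or 6, LKO_Fasted replicate 1, 5 or 6, or LKO_Fasted replicates 1 and 2 together. The Gsta2 probe shares a run of 30 bases with a probe of Gm10639.

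The theta class, which acts on small halogenated compounds, included a gene that was called lower in LKO in both feeding states. Gstt3 (probe on chromosome 10, 75236966 to 75237025 in mm9) read 12.61, 13.17 and 13.75 in LWT_Fed, 12.50, 12.55 and 12.93 in LWT_Fasted, 11.48, 12.05 and 12.47 in LKO_Fed and 10.15, 10.75 and 11.20 in LKO_Fasted. Every array labelled LKO lay below every array labelled LWT, and every LKO_Fasted array lay below every LKO_Fed array. LKO against LWT differed by -1.11 when fed (2.16-fold lower, SE 0.172, limma adjusted p = 0.000247) and by -1.91 when fasted (3.75-fold lower, SE 0.183, adjusted p = 4.81e-07). Fasting changed it by -1.32 in LKO (SE 0.186, adjusted p = 6.08e-06) and by -0.52 in LWT (adjusted p = 0.0157, under 1.5-fold). The interaction was -0.79 (95% confidence interval -1.315 to -0.273) and missed the threshold at an adjusted p of 0.0566.

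Its neighbour Gstt1 read 15.56, 15.71 and 15.82 in LWT_Fed, 15.15, 15.34 and 15.69 in LWT_Fasted, 15.22, 15.33 and 15.65 in LKO_Fed and 14.13, 14.59 and 14.75 in LKO_Fasted. The LKO_Fasted arrays lay below all others. Gstt1 was lower in LKO than in LWT when fasted (-0.77, SE 0.0937, limma adjusted p = 7.91e-06) and fell with fasting in LKO (-0.78, SE 0.0954, adjusted p = 8.21e-07). Its interaction of -0.47 passed the adjusted p (0.0289) but not the minimum fold. Gstt2, the remaining theta gene of the same 58 kb, was not called in any comparison on its brightest probe, with fasting changes of 0.48 in LWT and 0.38 in LKO. A dimmer Gstt2 probe was called higher with fasting in LWT (1.54) and in LKO (1.88) and higher in LKO_Fasted than in LWT_Fasted (0.73). For these changes the probes of this gene disagree on the call though not on the sign. The interaction, called on neither probe, was -0.10 on the brightest and 0.34 on the dimmer.

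The pi-class genes Gstp1 and Gstp2, abundant in male mouse liver, and the mitochondrial and peroxisomal Gstk1 were not called in any comparison. Their fasting changes in LKO were -0.46, -0.13 and 0.32.

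Between fasted genotypes 5 of the 10 sulfotransferases were called, all lower in LKO, beside 2.28% of all genes called lower, and their median log2 fold change was -0.76. Between fed genotypes 1 was called, lower in LKO, beside 1.18% of all genes, and the median was -0.14. The difference between these counts was not tested. Sult1d1, a rodent sulfotransferase of catecholamines and eicosanoids, was the member with opposite calls in the 2 genotypes. It read 12.09, 12.66 and 13.12 in LWT_Fed, 12.98, 13.50 and 14.18 in LWT_Fasted, 12.34, 12.74 and 12.83 in LKO_Fed and 11.41, 11.98 and 13.44 in LKO_Fasted. Only 1 LKO_Fasted array, replicate 4, lay above the fed arrays of its genotype, and the other 5 lay below all LKO_Fed arrays. Fasting raised Sult1d1 by 0.85 in LWT (1.81-fold, SE 0.200, limma adjusted p = 0.00153) and lowered it in LKO (-0.67, SE 0.221, adjusted p = 0.0186). The interaction was -1.52 (SE 0.298, adjusted p = 0.00355), and LKO_Fasted was lower than LWT_Fasted by as much (-1.52, SE 0.217, adjusted p = 4.99e-05), while the fed groups did not differ at the threshold (0.00, adjusted p = 0.994, 95% confidence interval -0.421 to 0.428). A second probe of Sult1d1 gave 0.83, -0.72, -1.55 and -1.50 for fasting in LWT, fasting in LKO, the interaction and the fasted genotype difference, and was called in each.

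The call for the fall of Sult1d1 in LKO depended on single arrays. Within slides it was 0.04, -0.77 and -0.72, and the slide with 0.04 carried LKO_Fasted replicate 4. The call was lost without LKO_Fed replicate 3, LKO_Fasted replicate 3 or LKO_Fasted replicate 6, at adjusted p-values of 0.0569, 0.0591 and 0.0574, and likewise without array weights (-0.48, adjusted p = 0.124) or without the filter on dim probes (adjusted p = 0.068). It was kept without LKO_Fasted replicate 4 (-0.78, adjusted p = 0.00238). That array also held the highest LKO_Fasted signal of other members, among them Sult1a1, Sult1c1, Sult1e1, Gsta4, Gstt3 and Ugt1a10. It held the lowest of others, among them Sult2a8, Gstt1, Sult1b1, Sult2a7, Gsta3, Gstm6 and Ugt1a6b. Its extremes were thus not limited to sulfotransferases. The interaction of Sult1d1 was called under each of 35 alternatives with a test.

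Sult1b1, which sulfates thyroid hormones and phenols, fell with fasting in LKO but not detectably in LWT. It read 11.26, 11.52 and 11.78 in LWT_Fed, 11.20, 11.41 and 11.65 in LWT_Fasted, 10.77, 11.02 and 11.30 in LKO_Fed and 9.66, 9.91 and 10.12 in LKO_Fasted. The LKO_Fasted arrays lay below all 18 others, and the LWT groups overlapped throughout. Fasting changed it by -1.10 in LKO (SE 0.103, limma adjusted p = 1.76e-08) and by -0.11 in LWT (adjusted p = 0.391), and the interaction was -0.99 (SE 0.138, adjusted p = 0.000213). LKO_Fasted was 2.87-fold below LWT_Fasted (-1.52, SE 0.101, adjusted p = 3.24e-09), and the fed difference was -0.53 (adjusted p = 0.000728, under 1.5-fold). A second probe of Sult1b1 was called for the fasted genotype difference (-1.28), the fasting change in LKO (-0.89) and the interaction (-0.76).

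Sult1e1, the oestrogen sulfotransferase, was dim and uneven. It read 6.25, 6.52 and 7.10 in LWT_Fed, 6.66, 7.13 and 8.49 in LWT_Fasted, 6.55, 6.63 and 6.71 in LKO_Fed and 5.95, 6.47 and 7.74 in LKO_Fasted, so each pair of groups overlapped. Fasting raised it by 0.67 in LWT (SE 0.257, limma adjusted p = 0.0408) and LKO_Fasted lay below LWT_Fasted (-0.87, SE 0.279, adjusted p = 0.0306). Both calls were lost without LWT_Fasted replicate 3 (0.35, adjusted p = 0.223, and -0.54, adjusted p = 0.118) or replicate 6 (0.46, adjusted p = 0.225, and -0.67, adjusted p = 0.135). The LWT call was also lost without LWT_Fed replicate 1, 3, 4 or 5, and the fasted genotype call without LKO_Fasted replicate 2 or 3.

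Sult1b1, Sult1d1 and Sult1e1 are neighbours in 61 kb of chromosome 5 (mm9, 87943760 to 88005246), at one end of a 686 kb stretch that also holds the 9 UGT2 members. All 3 sulfotransferases were called lower in LKO_Fasted than in LWT_Fasted, as was 1 of the 9 UGT2 genes (Ugt2a3), beside 2.28% of all genes. The calls of Sult1e1 and Ugt2a3 were each lost under 8 of 36 alternatives. The 250 bases before the start of these 3 genes are shown because neighbouring genes differed in the same comparison, and those of Gsta3 and Gstm5 because among the 34 members with a RefSeq promoter (GRCm38.p6) only these 2 held the antioxidant response element. Capitals mark each match to the letters searched on both strands.
Sult1b1, chr5:87538196-87538445, minus strand: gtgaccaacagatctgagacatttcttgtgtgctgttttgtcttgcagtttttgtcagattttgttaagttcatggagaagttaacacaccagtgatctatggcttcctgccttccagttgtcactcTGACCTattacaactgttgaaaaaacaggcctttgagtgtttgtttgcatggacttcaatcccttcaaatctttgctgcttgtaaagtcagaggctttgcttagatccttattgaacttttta
Sult1d1, chr5:87569007-87569256, minus strand: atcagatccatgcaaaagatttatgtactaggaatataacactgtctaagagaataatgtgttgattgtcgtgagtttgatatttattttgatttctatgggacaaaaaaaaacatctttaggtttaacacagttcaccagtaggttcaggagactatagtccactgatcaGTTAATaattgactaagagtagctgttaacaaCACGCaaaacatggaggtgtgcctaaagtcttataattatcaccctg
Sult1e1, chr5:87591612-87591861, minus strand: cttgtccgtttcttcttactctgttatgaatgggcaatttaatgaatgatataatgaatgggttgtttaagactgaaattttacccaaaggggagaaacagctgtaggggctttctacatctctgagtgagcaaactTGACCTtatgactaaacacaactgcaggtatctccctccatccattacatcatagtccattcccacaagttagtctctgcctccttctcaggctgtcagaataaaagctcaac
Gsta3, chr1:21240335-21240584, plus strand: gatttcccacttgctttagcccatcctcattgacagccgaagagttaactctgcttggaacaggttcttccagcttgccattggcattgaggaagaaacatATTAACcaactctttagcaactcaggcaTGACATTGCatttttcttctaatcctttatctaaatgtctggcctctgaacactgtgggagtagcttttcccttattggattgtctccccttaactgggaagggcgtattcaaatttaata
Gstm5, chr3:107895604-107895853, plus strand: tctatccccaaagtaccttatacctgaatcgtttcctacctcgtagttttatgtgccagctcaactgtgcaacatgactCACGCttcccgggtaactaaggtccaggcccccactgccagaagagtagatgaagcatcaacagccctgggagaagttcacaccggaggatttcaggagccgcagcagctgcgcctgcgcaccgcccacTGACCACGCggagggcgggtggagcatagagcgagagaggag

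The letters searched were TGACNNNGC (antioxidant response element, bound by NRF2), TTCNNNGAA (STAT5), GTAAACA (FOXO), GTTAAT (part of the HNF1 site), GCGTG (core of the xenobiotic response element), AGGTCA (the repeat that nuclear receptors bind) and CACGTG (E-box). The antioxidant response element lay in Gsta3 at 121 to 113 bases before the start (beside an HNF1 motif at 149 to 144) and in Gstm5 at 42 to 34, where it overlaps a GCGTG match at 38 to 34 (another lies at 171 to 167). Sult1b1 and Sult1e1 each held 1 nuclear receptor motif (AGGTCA), at 123 to 118 and at 113 to 108. Sult1d1 held the HNF1 motif at 79 to 74 and GCGTG at 47 to 43.

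Over the 34 members, the antioxidant response element was in 2 (5.88%), beside 10.1% of 27025 promoters of the same length. STAT5 was in 1 (2.94% beside 7.14%), FOXO in 3 (8.82% beside 3.06%), the HNF1 motif in 7 (20.6% beside 6.54%), GCGTG in 5 (14.7% beside 28.3%), AGGTCA in 8 (23.5% beside 13.8%) and the E-box in 0 (beside 6.04%). Of the 7 mu-class promoters, 1 held the antioxidant response element, 2 held GCGTG and none held the other 5. These matches describe the sequence and were not related to the changes.

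Sult1c2 fell with fasting in both genotypes. It read 9.03, 9.62 and 9.78 in LWT_Fed, 8.32, 8.65 and 8.87 in LWT_Fasted, 8.72, 9.35 and 9.87 in LKO_Fed and 7.36, 7.79 and 8.30 in LKO_Fasted. Fed and fasted arrays were apart in each genotype, and LKO_Fasted lay below all other arrays. The fasting change was -0.90 in LWT (SE 0.149, limma adjusted p = 4.74e-05) and -1.59 in LKO (SE 0.165, adjusted p = 7.97e-08). LKO_Fasted was below LWT_Fasted (-0.92, SE 0.162, adjusted p = 0.000369), and the interaction of -0.70 missed the threshold (adjusted p = 0.0589).

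Sult2a7, of a family that sulfates hydroxysteroids and bile acids, was lower in LKO in both feeding states. It read 7.89, 8.18 and 8.54 in LWT_Fed, 7.56, 7.66 and 7.85 in LWT_Fasted, 6.29, 6.62 and 7.22 in LKO_Fed and 6.21, 6.50 and 6.59 in LKO_Fasted. No array labelled LKO reached the lowest array labelled LWT. The difference was -1.49 when fed (2.81-fold, SE 0.120, limma adjusted p = 1.89e-07) and -1.18 when fasted (2.27-fold, SE 0.127, adjusted p = 2.01e-06). The fasting changes, -0.50 in LWT and -0.19 in LKO, were not called. Sult2a8, the other SULT2 member and a bile acid sulfotransferase, was not called, with -0.02 fed and -0.40 fasted between genotypes.

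Sult4a1 and Sult5a1, whose substrates are not settled, fell with fasting. Sult4a1 read 6.53, 7.04 and 7.49 in LWT_Fed, 6.07, 6.15 and 6.26 in LWT_Fasted, 6.19, 6.49 and 7.36 in LKO_Fed and 5.74, 6.01 and 6.16 in LKO_Fasted. Fed arrays lay above fasted arrays in both genotypes, with log2 fold changes of -0.75 in LWT (SE 0.159, limma adjusted p = 0.000617) and -0.59 in LKO (SE 0.176, adjusted p = 0.0102). The Sult4a1 call in LKO, at the fold limit, was lost under 10 of 36 alternatives (down to -0.48), 8 of them with arrays left out, namely LWT_Fed replicate 4 or 5, LKO_Fed replicate 2, 3 or 5, LKO_Fasted replicate 1 or 5, or LKO_Fasted replicates 1 and 2 together. Sult5a1 read 9.46, 9.86 and 10.62 in LKO_Fed and 7.75, 8.79 and 9.53 in LKO_Fasted, an overlap of 1 array, with a change of -1.23 (SE 0.352, adjusted p = 0.0075). In LWT its change of -0.72 was not called (adjusted p = 0.0757), and a second probe gave -0.57 in LKO, under 1.5-fold. Signals of Sult1e1, of Sult4a1 and, in LKO, of Sult2a7 lay near those of undetected probes and were not background-subtracted, which narrows their fold changes. With the background-corrected processed signal Sult2a7 differed by as much as -1.98 when fed.

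The SULT1 genes Sult1a1, the main phenol sulfotransferase, and Sult1c1 were not called on their brightest probes. With fasting Sult1a1 changed by 0.42 (LWT) and -0.12 (LKO). Its interaction of -0.53 fell short on both criteria (adjusted p = 0.0504). A second Sult1a1 probe of nearly equal brightness was called for the interaction (-0.69, limma adjusted p = 0.0141). The probes agree on the sign of this difference and not on the call.

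**Figure D3:**
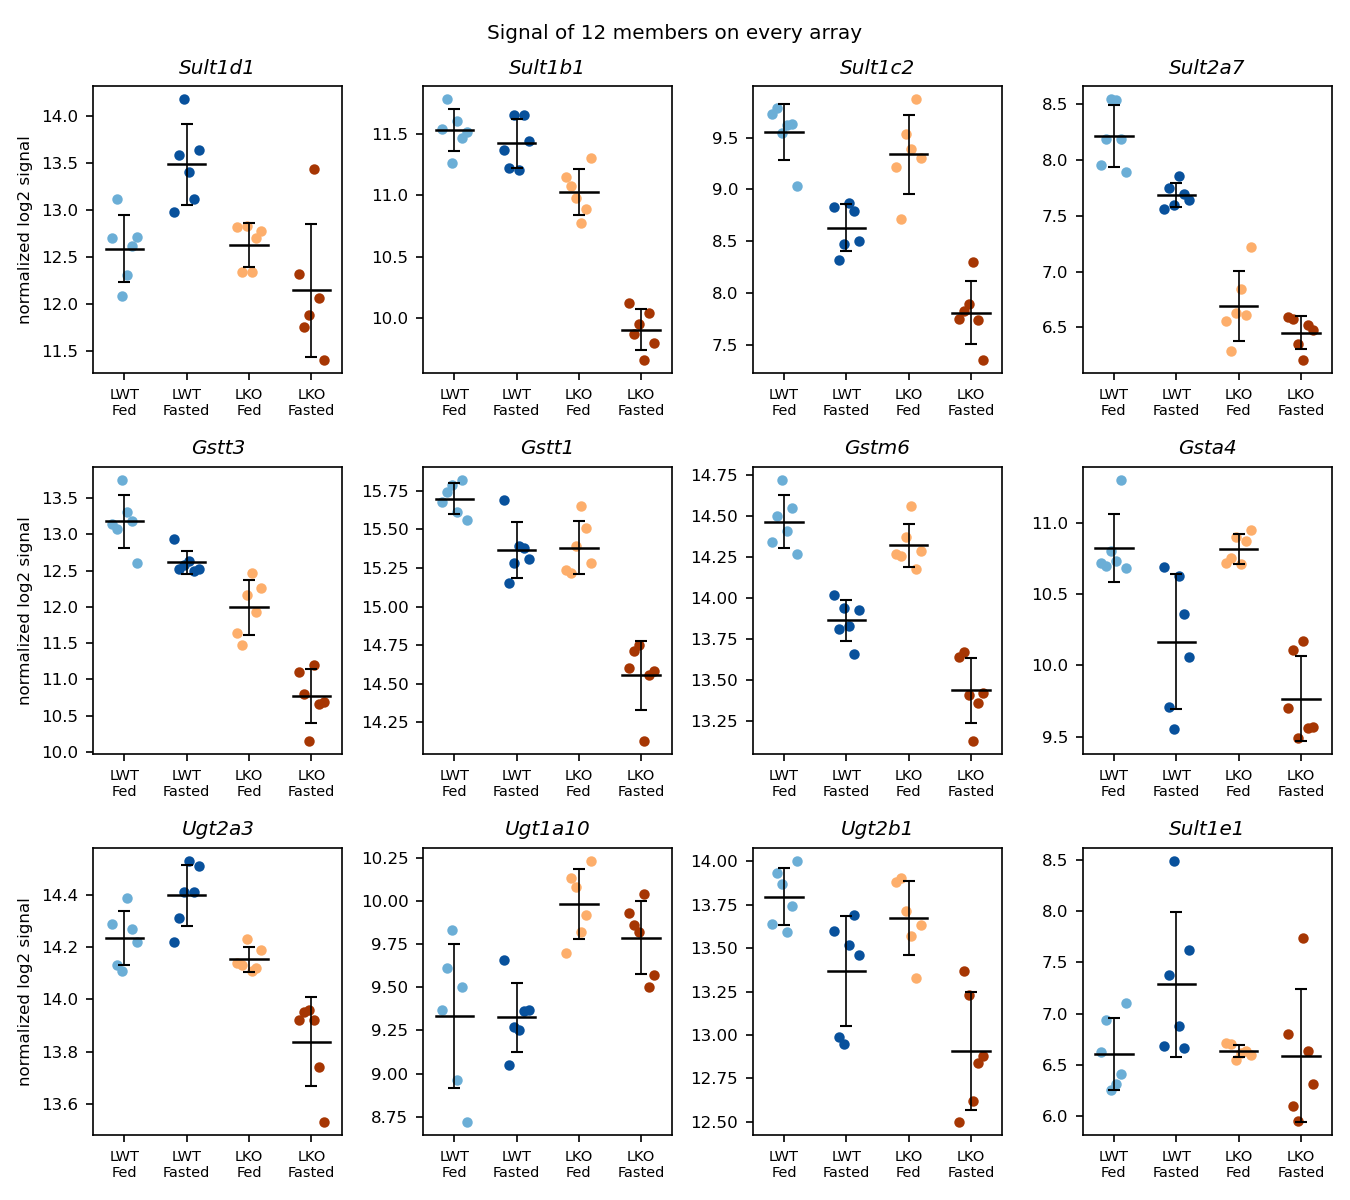
Normalized log2 signal of 12 members on every array, by group, each point being 1 mouse. Horizontal lines are group means and error bars the SD over 6 arrays, and each panel has its own axis. Gstt3 and Sult2a7 separate the genotypes in both feeding states, Sult1b1 sets LKO_Fasted apart from the rest, and 1 LKO_Fasted array of Sult1d1 lies at 13.44.

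Among the glucuronosyltransferases the median log2 fold change with fasting was -0.28 in LKO and 0.01 in LWT. Over the GST genes it was -0.76 and -0.45, and over the SULT genes -0.53 and -0.1. Between genotypes the UGT median was -0.08 fed and -0.22 fasted, beside -0.02 and -0.21 for GST and -0.14 and -0.76 for SULT. The classes were not tested against each other. Ugt1a10 was called higher in LKO when fed. It read 8.72, 9.44 and 9.83 in LWT_Fed, 9.05, 9.32 and 9.66 in LWT_Fasted, 9.70 at the lowest and 10.23 at the highest in LKO_Fed, and 9.50, 9.84 and 10.04 in LKO_Fasted. The highest LWT_Fed array lay within the LKO_Fed range and the other LWT_Fed arrays below it, and the difference was 0.70 (1.62-fold, SE 0.133, limma adjusted p = 0.00121). When fasted it was 0.40 (adjusted p = 0.0496, under 1.5-fold), and the interaction of -0.30 missed the threshold (adjusted p = 0.383). UGT1 genes are made by splicing of different first exons to shared ones, so a probe in the shared part reads several of them. Ugt1a6a and Ugt1a6b, which act on phenols, were not called, although a dimmer Ugt1a6b probe was called lower in LKO_Fasted (-0.73). The dim Ugt1a6a probe read 6.44 to 7.41 over all arrays. Fasting changed it by -0.50 in LWT (limma adjusted p = 7.88e-05) and by -0.42 in LKO (adjusted p = 0.00127). Both changes were under 1.5-fold. They were called lower with the background-subtracted processed signal under either scaling, but not with normexp background correction.

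In the UGT2 family, which handles steroids, bile acids and drugs, Ugt2b1 and Ugt2a1 fell with fasting in LKO. Ugt2b1 read 13.33, 13.67 and 13.90 in LKO_Fed and 12.50, 12.86 and 13.37 in LKO_Fasted, against 13.59, 13.81 and 14.00 in LWT_Fed and 12.95, 13.49 and 13.69 in LWT_Fasted. In LKO 1 fasted array reached the fed range. The change was -0.74 in LKO (SE 0.156, limma adjusted p = 0.000591) and -0.35 in LWT (adjusted p = 0.0501). Ugt2a1 read 10.17, 10.34 and 10.76 in LKO_Fed and 9.55, 9.69 and 10.03 in LKO_Fasted, without overlap, a change of -0.61 (SE 0.111, adjusted p = 0.000133), and changed by -0.22 in LWT. The LKO call of Ugt2a1 was lost without LKO_Fed replicate 4 (-0.52) or LKO_Fasted replicate 6 (-0.56).

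Ugt2a3 was lower in LKO_Fasted than in LWT_Fasted. It read 14.11, 14.24 and 14.39 in LWT_Fed, 14.22, 14.41 and 14.53 in LWT_Fasted, 14.11, 14.14 and 14.23 in LKO_Fed and 13.53, 13.92 and 13.96 in LKO_Fasted. The LKO_Fasted arrays lay below all others. The difference between fasted groups was -0.59 (1.51-fold, SE 0.0753, limma adjusted p = 1.33e-05). This call, at the fold limit, was lost under 8 of 36 alternatives (down to -0.51), 5 of them with LWT_Fasted replicate 3, 4 or 6 or LKO_Fasted replicate 5 or 6 left out. The interaction of -0.48 passed the adjusted p (0.00652) but not the fold. The other 6 UGT2 genes (Ugt2b5 and Ugt2b34 to Ugt2b38) were not called in any comparison, with fasting changes of -0.50 to -0.08 in LKO. The UGT3 genes Ugt3a1 and Ugt3a2, which use sugar donors other than UDP-glucuronic acid, were not called either and differed between fasted genotypes by -0.43 and -0.34.

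Between genotypes, 1 of the 40 members was higher and 2 were lower in LKO than in LWT when fed, beside 2.66% and 1.18% of all genes. When fasted, none was higher and 8 were lower, beside 1.77% and 2.28% of all genes. With the probe of lowest adjusted p for each gene, 1 member (Gstt2) was higher when fasted and 9 were lower. At the adjusted p alone, 4 members were lower when fed and 18 when fasted, beside 7.60% and 10.6% of all genes, and 1 member (Ugt1a10) was higher in each, beside 8.82% and 10% of all genes. Both comparisons share no array with each other, but each shares its arrays with the fasting comparisons above. The median log2 fold change over the members was -0.08 fed and -0.24 fasted, beside -0.01 and 0.00 over all genes.

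The interaction was called for 2 members, Sult1b1 and Sult1d1, both lower, beside 1.54% of all genes lower and 1.55% higher. At the adjusted p alone it was negative for 5 members (also Gstt1, Ugt2a3 and Ugt1a6b at -0.31), beside 3.86% of all genes, and positive for none, beside 4.11%. Its median was -0.30 over the members and 0.00 over all genes. For the other 35 members the difference in fasting change between genotypes was not shown on their brightest probes. Second probes of Gsta3 (-0.36, limma adjusted p = 0.0174) and Sult1a1 (-0.69, limma adjusted p = 0.0141) passed the adjusted p. Only that of Sult1a1 also passed the fold. The 19 falls in LKO against 4 in LWT thus do not by themselves show a difference between genotypes. Without LKO_Fasted replicate 4 the interaction was called for 5 members (Gstt3, Sult1a1, Sult1b1, Sult1c2 and Sult1d1), and without LKO_Fed replicate 1 or 2 for 4 (Gstt3, Sult1b1, Sult1c2 and Sult1d1). Without LKO_Fasted replicates 1 and 2 the counts were 18 falls with fasting in LKO (17 of them among the 19), 7 lower genes between fasted genotypes and 3 interactions.

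**Figure D4:**
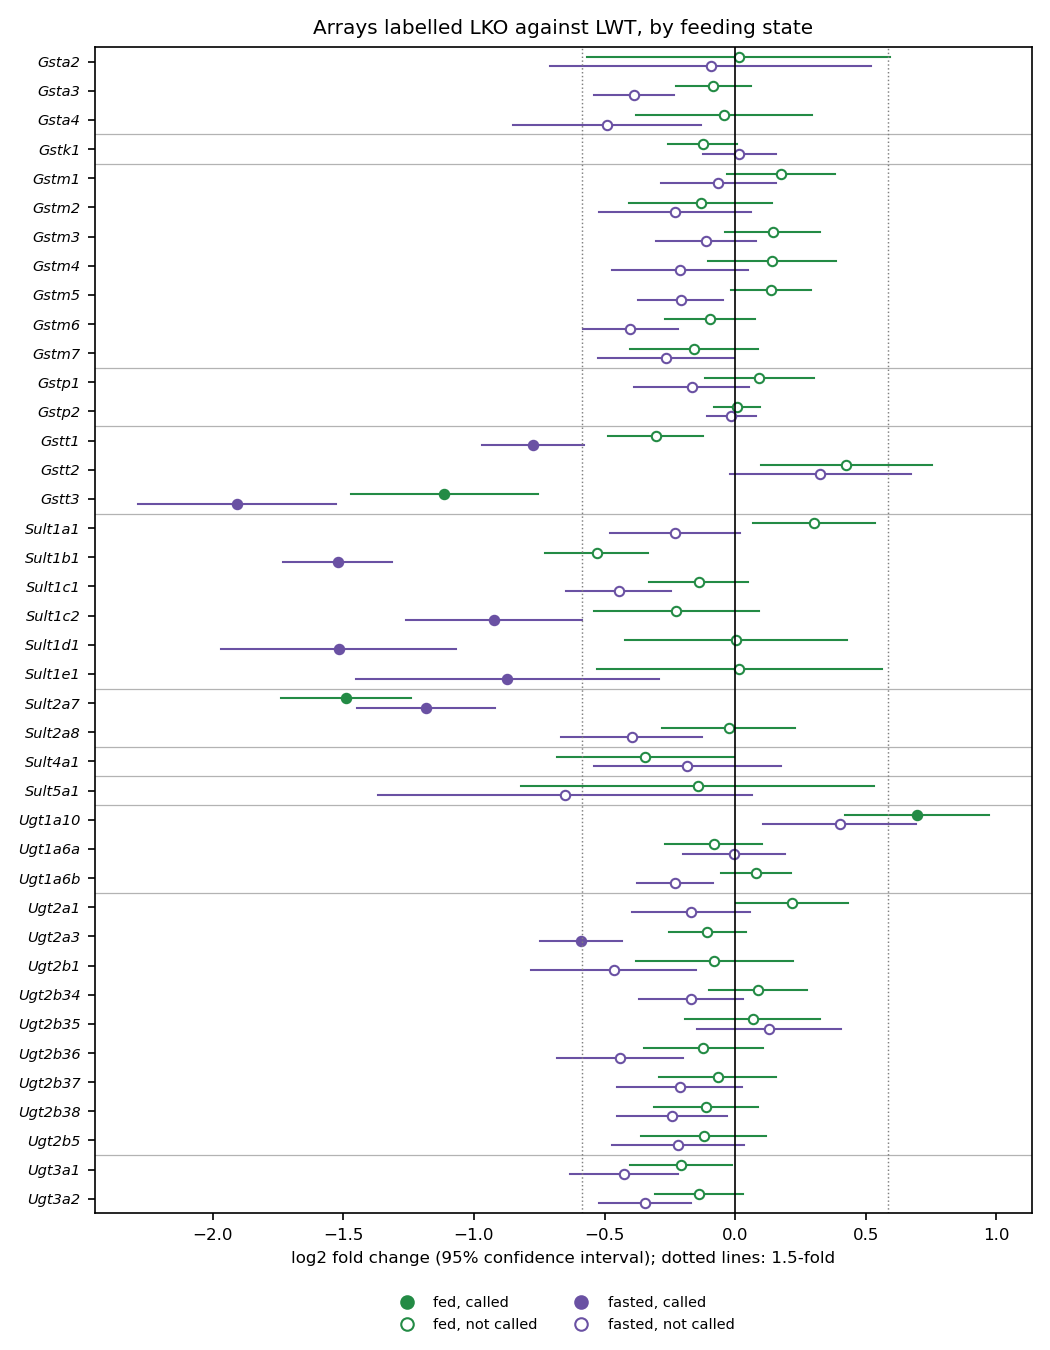
Log2 difference of each member in LKO relative to LWT, fed (green) and fasted (purple), with 95% confidence intervals from limma. Filled points were called and dotted lines mark 1.5-fold. Most points lie near 0 when fed, with Gstt3 at -1.11, Sult2a7 at -1.49 and Ugt1a10 at 0.70 called, and 8 fasted points are called, all below 0.

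Other genes of the pathway were taken from lists drawn up by function. Of 15 genes that supply cofactors (UDP-glucuronic acid, PAPS and glutathione), 2 fell with fasting in both genotypes and none rose. Papss1, which makes PAPS, changed by -1.60 in LWT (limma adjusted p = 4.14e-11) and -1.64 in LKO (adjusted p = 8.77e-11). Ugp2, which makes UDP-glucose, changed by -0.81 in LWT and -1.23 in LKO. No cofactor gene was called between genotypes or in the interaction, and Gclc, Gclm, Gss and Gsr, which make or recycle glutathione, passed both criteria in no comparison.

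Of 17 tested conjugating enzymes outside the 3 families, 1 rose and 2 fell with fasting in LWT, and 3 rose and 4 fell in LKO. Nnmt, which methylates nicotinamide, rose with fasting in LWT (1.15) and LKO (1.19) and was higher in LKO both fed (0.92) and fasted (0.96). The histamine methyltransferase Hnmt was lower in LKO_Fasted (-1.22, limma adjusted p = 5.24e-07), with an interaction of -0.73 (adjusted p = 0.00866), and Tpmt, which methylates thiopurines, was also lower (-0.68). Inmt, which methylates indole amines, fell in both genotypes (-1.03 in LWT and -1.65 in LKO), with an interaction of -0.61 (adjusted p = 0.0202).

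Of 8 tested genes of deconjugation and export, fasting in LWT raised the steroid sulfatase Sts (0.65) and the conjugate exporter Abcc3 (0.78) and lowered the organic anion carrier Slc22a7 (-1.25). In LKO it lowered 1, Slc22a7 (-2.32), which was also lower in LKO_Fasted than in LWT_Fasted (-1.89, limma adjusted p = 0.00154). Of 14 regulators, fasting in LWT raised 3 and lowered 1, including Nr1i2 (the receptor PXR, 0.98), Ppara (0.89) and Esr1 (-0.91), and in LKO raised 2 and lowered 2, including Ppara (0.87), Esr1 (-1.61) and Ahr (-0.73). None of the 14, which include Nfe2l2 and Nr1i3, was called between genotypes.

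Markers of other cells and states moved beside these results as follows, and their part in them was not tested. With fasting in LKO, where 19 members fell, 3 of 8 pericentral markers were lower (Rgn, Cyp1a2 at -1.50 and Lgr5 at -0.94) and 1 was higher (Oat, 0.81). Of 6 periportal markers 2 were lower (Hal at -0.89 and Cyp2f2 at -0.67) and 1 was higher (Pck1, 0.79). The pericentral sum was 566000 to 627000 in LKO_Fed and 468000 to 603000 in LKO_Fasted, and the periportal sum 424000 to 586000 and 478000 to 765000.

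In the same comparison 1 of 4 tested female-biased genes was lower (Cyp2a4, -1.20), and of 8 male-biased genes 2 were lower (Hsd3b5 at -4.58 and Selenbp2 at -1.89) and 2 higher (Elovl3 at 1.41 and Cyp4a12a at 0.67). The female-biased sum was 214000 to 318000 in LKO_Fed and 151000 to 242000 in LKO_Fasted, and the male-biased sum 608000 to 865000 and 492000 to 626000. Of other cell types, 1 of 5 cholangiocyte markers (Krt19, -0.59), 1 of 5 stellate cell markers (Lrat, -0.96) and 1 of 2 pancreatic markers (Cela1, -1.04) were lower. Their sums in LKO_Fed and LKO_Fasted were 374 to 537 and 382 to 516 for cholangiocytes, 24700 to 35100 and 26300 to 42300 for stellate cells, and 7660 to 14900 and 3810 to 6200 for pancreas. Krt19 (-0.67), Lrat (-0.90), Cela1 (-0.60), Lgr5 (-0.73), Hsd3b5 (-2.55) and Selenbp2 (-0.87) were also lower, and Oat (0.62), Pck1 (1.59), Sds (1.45) and Elovl3 (1.70) higher, with fasting in LWT.

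Between fed genotypes Cyp4a12a (-1.27), Cfd (-2.76), Lyve1 (-0.88) and Alas2 (-0.80) were lower in LKO and Pck1 (0.80) was higher. In the interaction Cyp1a2, Hal, Sds, Cyp2a4 and Hsd3b5 were lower, between -2.03 and -1.07.

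In the comparison of fasted genotypes, 3 of 8 male-biased liver genes were lower in LKO (Hsd3b5 at -2.02, Cyp4a12a at -0.72 and Selenbp2 at -0.68) and 1 of 4 tested female-biased genes (Cyp2a4, -1.05). The summed signal of the male-biased list was 492000 to 626000 in LKO_Fasted against 606000 to 744000 in LWT_Fasted, and that of the female-biased list 151000 to 242000 against 244000 to 348000. Of 8 pericentral markers Cyp1a2 was lower (-0.79) and of 6 periportal markers Hal (-0.87). The pericentral sum was 468000 to 603000 in LKO_Fasted against 575000 to 623000 in LWT_Fasted, and the periportal sum 478000 to 765000 against 566000 to 621000.

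Among markers of other cell types, Cfd (1 of 3 tested adipocyte genes), Alas2 (1 of 3 erythroid genes) and Cela1 (1 of 2 pancreatic genes) were lower in LKO_Fasted, and none of 5 cholangiocyte, 6 Kupffer cell, 5 endothelial and 5 stellate cell markers was called in that comparison. In LKO_Fasted against LWT_Fasted the adipocyte sum was 310 to 450 against 348 to 5480, the erythroid sum 121000 to 274000 against 72000 to 246000, and the pancreatic sum 3810 to 6200 against 7030 to 13200. The Kupffer cell sum was 15400 to 71000 in LKO_Fasted and 15800 to 37100 in LWT_Fasted. Adipoq, Cpa1, Pnlip and Prss1 did not pass the filter on dim probes.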

How the data were processed

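Liver RNA of 24 mice, 1 Agilent one-colour array each, was analysed. The files are scanner output: per the file headers, the median signal of each spot is an intensity on a linear scale, extracted with Agilent Feature Extraction 10.10.1.1. A deposited matrix holds log2 values that the authors made from the median signal by filtering, a correction for washing bath and quantile normalization, and served to choose genes and as an alternative.

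Here, outlier spots were dropped, spots of one probe averaged, and probes kept if well above background on at least 5 of 6 arrays of a group (32197 probes, 21495 genes, 46 missing values). Log2 median signals were quantile normalized, without background subtraction, and fitted with limma 3.58.1 in R 4.3.3, with group means, slide and array weights. Genes with an adjusted p of at most 0.05 and over 1.5-fold were called. A gene was read from its probe with the highest mean. The fit was tested on simulated data. Of the 40 file names of members, all equal RefSeq GRCm38.p6 symbols. P-values weigh a difference against the spread between arrays, 1 per mouse, and the number of mice limits the precision.

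Members and lists were chosen with earlier results of these data known. By the rule for named genes, members called in at least 1 comparison are given with group levels and the fold change, SE and adjusted p of each call, up to 8 a family, and up to 3 called genes per pathway list and comparison. Other genes named were chosen after their values were seen. Some list genes are not reported here. Replicate numbers did not pair samples: of 36 pairs, 4 correlated above 0.1 (r from -0.173 to 0.295). Alternatives covered signal, normalization, filter, weights, slide, block, fold minimum, probe choice and arrays left out.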

Additional observations from a re-analysis of the deposited data

Results flagged for a closer look

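In 9 of 160 groups of 6 arrays (5.62%) the highest or lowest array stood far from the nearest other, with a gap that was large relative to the range of the group (above the 95% critical value of Dixon). Chance gives about 1 in 20 such groups. For Gsta4, LWT_Fed replicate 5 read 11.30 against 10.80 for the next array (gap over range 0.806). For Gstt1, LKO_Fasted replicate 4 read 14.13 against 14.56 (0.694), and for Gstt2, LWT_Fed replicate 6 read 11.60 against 12.35 (0.658). For Gstt3, LWT_Fasted replicate 1 read 12.93 against 12.63 (0.698). For Sult1c1, LWT_Fasted replicate 2 read 7.70 against 8.01 (0.775) and LKO_Fasted replicate 4 read 8.24 against 7.66 (0.69). For Sult1c2, LWT_Fed replicate 6 read 9.03 against 9.54 (0.68). For Ugt2a1, LWT_Fasted replicate 2 read 9.59 against 9.90 (0.66), and for Ugt3a1, LKO_Fasted replicate 2 read 14.72 against 14.35 (0.685).

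The fasting change differed between genotypes at an adjusted p of at most 0.05 in limma for 5 members on their brightest probes. The difference, the LKO change less the LWT change, was -1.52 for Sult1d1, -0.99 for Sult1b1, -0.48 for Ugt2a3, -0.47 for Gstt1 and -0.31 for Ugt1a6b. The last 3 were under 1.5-fold.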

How the results depend on the processing

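The 38 calls of a member in a comparison were recomputed under up to 36 settings, which gave 1366 fold changes. Of these, 1302 kept sign and call, 64 kept the sign but lost the call, and 0 changed sign, with 28 of the 38 calls made under every setting. In 24 settings 1 array was left out, often of a group outside the comparison, where it bears little on the fold change. The settings are thus not independent checks. Within slides, 113 of 114 differences had the same sign, the exception being the fasting change of Sult1d1 in LKO, at 0.04 on the slide with LKO_Fasted replicate 4. Without a minimum fold, the members called numbered 23 for fasting in LWT, 30 for fasting in LKO, 5 between fed genotypes, 19 between fasted genotypes and 5 for the interaction. With the probe of lowest adjusted p for each gene, they numbered 7, 20, 3, 10 and 3 in the same order. The interaction was called for 4 members with the deposited matrix and 4 without the slide term (in both cases Gstt3, Sult1b1, Sult1c2 and Sult1d1). With each array left out in turn, the counts ranged from 4 to 9, 16 to 19, 3 to 3, 7 to 8 and 2 to 5 in the same order, the cause of which was not tested. With a replicate block the counts were 5, 18, 3, 8 and 2. The replicate block lost the call of Sult1e1 with fasting in LWT (0.64) and of Gsta2 in LKO (-0.74). The interaction of Sult1d1 ranged from -1.68 to -1.34 and that of Sult1b1 from -1.05 to -0.94. Calls lost most often were those of Sult1e1 in LWT and Gsta2 in LKO, each under 12 settings. These figures leave out calls gained, such as those of Ugt1a6a with fasting in both genotypes with the processed signal. Dim probes, among them those of Sult1e1, Sult2a7, Sult4a1 and Ugt1a6a, limit what can be said of their folds.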
